A study of Mus musculus with 3 samples.

Results

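GABA-A receptors are chloride channels assembled from several subunits around a central pore, and they carry most fast inhibition in the brain. The genes described here are 7 of their subunit genes, the alpha genes Gabra2, Gabra3, Gabra4, Gabra5 and Gabra6, the beta gene Gabrb2 and the delta gene Gabrd. They were chosen by name, and all 7 are among the 32531 gene symbols counted in these libraries, which hold 19 GABA-A receptor genes in all. RNA on tagged ribosomes was purified from the deep nuclei of the cerebellum, its output nuclei, of adult Htr6-TRAP NIDA113 mice on the C57BL/6J strain and sequenced. In this line the ribosomal protein Rpl10a is fused to EGFP, and the line is named for Htr6, a serotonin receptor gene. The tagged cells are those of this line in which the transgene is active. There are 3 libraries, all immunopurified and of 1 group, with no treatment in the labels. No unpurified library is among them, so RNA carried over from untagged cells cannot be told apart from that of tagged cells. Whether each library came from 1 animal or a pool is not given, so the spread between them may be partly technical.

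As background, the alpha subunit sets where a receptor sits and how it responds. Receptors with alpha 6 and delta are known from cerebellar granule cells, where they lie outside synapses and give a steady tonic current; in the forebrain delta partners with alpha 4 instead. Receptors with alpha 2 or alpha 3 are mostly synaptic, those with alpha 5 are known from the hippocampus, and beta 2 is the usual beta partner in the adult brain. Gabra6 and Gabrd are therefore called the granule-type genes below, and the other 5 the general subunit genes.

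The libraries held 7622010 to 8842058 gene counts. Levels of a gene are given as CPM (counts scaled to a common library size by TMM), and levels of different genes are compared only as RPKM, the CPM per 1000 bases of annotated exon. A count of 0 allows up to 0.34 to 0.397 CPM, taking 3 counts as the limit and covering counting error only. The labelled tissue is represented by Slc17a6, the vesicular glutamate transporter gene of its excitatory neurons (302 ± 80.2 CPM; SD, n = 3), but of its other listed markers Sox14 had no count and Lhx2 and Lmx1a each had none in 1 library. Genes that mark granule cells of the cortex, such as Cbln3 and Fat2, were counted in every library. With bulk RNA, fewer cells of a type and less RNA per cell cannot be told apart.

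The start regions of the highest of the 5 listed alpha genes, Gabra6, and of a low one, Gabra2, are shown because the levels of these genes differed widely. Each sequence is the 250 bases before the RefSeq start site on GRCm38.p6, the assembly also called mm10, written in the gene's own direction. Gabra6 lies on the minus strand of chromosome 11 and its window at chr11:42321073-42321322; Gabra2 lies on the minus strand of chromosome 5 and its window at chr5:71095850-71096099. Capitals mark matches on either strand to 6 short motifs, which are spelled out after the sequences.
Gabra6: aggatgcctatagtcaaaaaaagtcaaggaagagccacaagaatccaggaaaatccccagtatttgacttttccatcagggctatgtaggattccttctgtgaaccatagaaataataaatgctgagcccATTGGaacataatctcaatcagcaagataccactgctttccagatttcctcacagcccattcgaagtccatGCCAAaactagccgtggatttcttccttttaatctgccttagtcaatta
Gabra2: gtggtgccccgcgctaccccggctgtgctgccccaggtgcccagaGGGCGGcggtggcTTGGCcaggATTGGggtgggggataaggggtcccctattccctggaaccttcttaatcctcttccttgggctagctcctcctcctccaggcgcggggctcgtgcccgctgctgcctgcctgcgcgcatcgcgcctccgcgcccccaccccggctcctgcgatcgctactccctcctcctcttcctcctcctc
The Gabra6 window had a GC content of 40.8%, higher than in 13.3% of the 32851 RefSeq windows, and the Gabra2 window 70.0%, higher than in 90.8% of them. Both hold 1 match to CCAAT, the CCAAT box, found in 33.8% of all windows, and 1 to TTGGC, the core of nuclear factor I sites, found in 41.5%. These 2 motifs share letters wherever GCCAAT occurs. A GC box, GGGCGG, was matched in Gabra2 and not in Gabra6, and 32.7% of windows hold it. The TATA box TATAAA (12.4% of windows), the E-box CAGCTG (13.0%) and the cAMP response element TGACGTCA (1.55%) were matched in neither. A match is a run of letters and no measured binding. RefSeq entries were found for 6 of the 7 genes, with 9 start sites among them. Of the low genes not shown, Gabra3 had windows of 39.2% and 42.4% GC and Gabra5 1 of 56.4%, without a GC box. The Gabra4 window had 61.2% GC and 2 GC box matches. For the abundant Gabrb2 the windows had 58.8%, 54.0% and 36.8% GC, with a GC box in that of 58.8% only. For the Gabrb2 windows of 58.8% and 54.0%, the bases after the start were found in no annotated transcript of the gene (GENCODE M21). This also held for the Gabra3 window of 42.4%. Whether these sequences bear on the levels was not tested.

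The RNA of these genes was dominated by 2 of them, Gabra6 and Gabrb2. Gabra6 had 1524, 2237 and 2121 counts in replicates 1, 2 and 3, or 202, 254 and 272 CPM, and a mean of 243 ± 36.5 CPM (SD, n = 3). Replicate 1 was the lowest, and the highest library was 1.35 times the lowest. Per length this is 97.5 ± 14.7 RPKM, above 98.4% of the 12562 genes that have a length and, over all libraries, 10 counts or more. Gabrb2 had 3653, 4932 and 4401 counts, or 484, 560 and 565 CPM (536 ± 45.5 CPM), with replicate 1 again the lowest and a highest over lowest ratio of 1.17. Its 84.3 ± 7.15 RPKM was above 98.0% of those genes. The 2 genes are neighbours on chromosome 11, Gabra6 on the minus strand at positions 42306437 to 42321072 and Gabrb2 on the plus strand at 42419757 to 42629028 (mm10, GENCODE M21), with 98684 bases between them. Together they took 95.8%, 94.6% and 95.4% of the RPKM summed over the 7 genes.

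**Figure D1:**
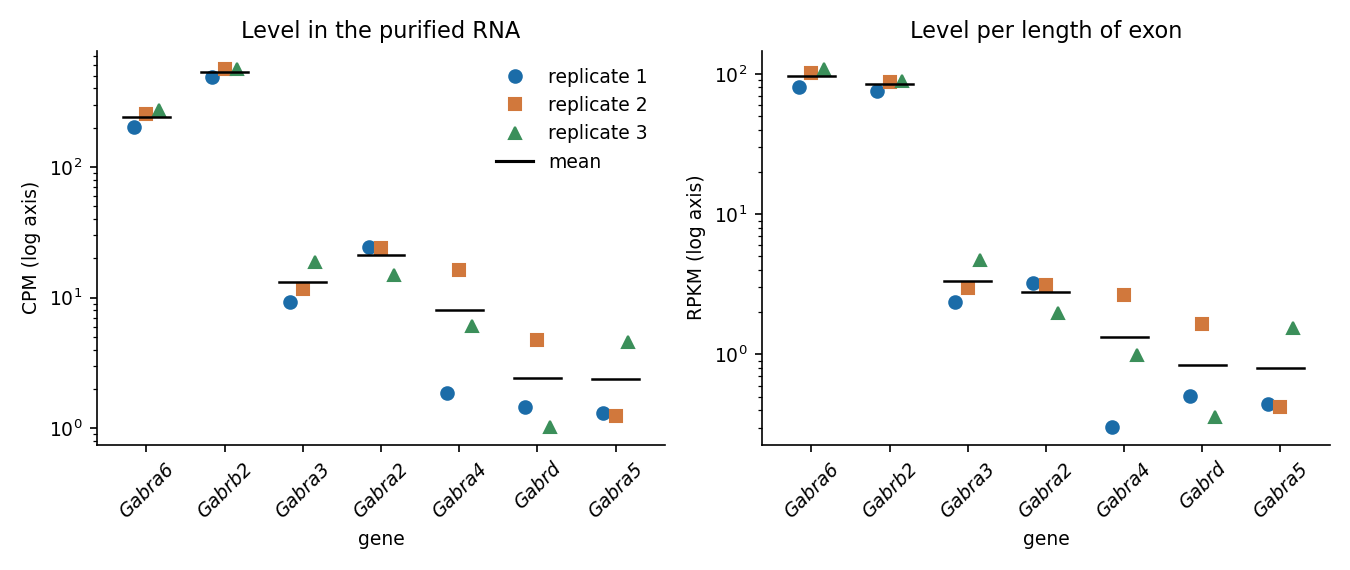
Level of each of the 7 subunit genes in each of the 3 libraries, as CPM (left) and RPKM (right), both on log axes, with a symbol per replicate and a line at the mean. Gabra6 and Gabrb2 lie between 76.0 and 109 RPKM in all 3 libraries, and every value of the other 5 genes lies below 5 RPKM.

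Gabrd, the other granule-type gene (positions 155384980 to 155398112 of chromosome 4, minus strand), was at the low end. It had 11, 42 and 8 counts, or 1.46, 4.77 and 1.03 CPM (2.42 ± 2.05 CPM; SD, n = 3), so replicate 2 stood above the other 2 libraries. Without replicate 2 its mean was 1.24 CPM. Per length it was at 0.841 ± 0.712 RPKM, above 19.1% of those genes. Gabra6 exceeded Gabrd by 160, 61.5 and 306 times in RPKM. On the log2(RPKM + 1) scale, which understates folds of low genes, the difference was 5.80 ± 0.54, with Gabra6 higher in 3 of 3 libraries by an exact two-sided permutation of signs (p = 0.25). That p is the smallest 3 libraries can give, here and for every difference below, so sizes are read against their SD.

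The other 4 listed alpha genes were low, and each ranked the libraries in an order of its own. Gabra2 (positions 70957597 to 71095849 of chromosome 5, minus strand) had 186, 210 and 117 counts, or 24.6, 23.8 and 15.0 CPM, lowest in replicate 3. Gabra3 (positions 72432681 to 72656848 of chromosome X, minus strand) had 70, 103 and 145 counts, or 9.27, 11.7 and 18.6 CPM, highest in replicate 3. Per length they stood at 2.77 ± 0.698 and 3.36 ± 1.24 RPKM (SD, n = 3), close to each other. Gabra2 minus Gabra3 was -0.19 ± 0.67 on the log2(RPKM + 1) scale, within its SD and without a common sign (p = 1.0, exact permutation of signs). Leaving out replicate 3 turned it to 0.19.

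Gabra4 and Gabra5 were lower still and rested on 1 library each. Gabra4, the forebrain partner of delta (positions 71569749 to 71658308 of chromosome 5, minus strand), had 14, 143 and 47 counts, or 1.85, 16.2 and 6.03 CPM. Its mean of 8.04 ± 7.40 CPM (SD, n = 3) became 3.95 CPM without replicate 2. Gabra5 (positions 57407672 to 57510059 of chromosome 7, minus strand) had 10, 11 and 36 counts, or 1.32, 1.25 and 4.62 CPM. Its mean of 2.40 ± 1.93 CPM became 1.27 CPM without replicate 3. As RPKM they stood at 1.32 ± 1.22 and 0.806 ± 0.647, and Gabra4 minus Gabra5 was 0.29 ± 0.94 in log2 units with Gabra4 higher in 1 of 3 libraries (p = 1.0, exact permutation of signs). Without replicate 2 this difference was -0.25. The annotated exons of Gabra4 share 46 bases with Gabrb1 on the opposite strand and those of Gabra5 share 148 bases with a noncoding gene, and the strand setting of the counts is not given.

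Among the 5 listed alpha genes, Gabra6 took 92.8%, 91.7% and 92.2% of the summed RPKM, a mean of 92.2% ± 0.508 (SD, n = 3). All 3 libraries lay within about 1 percentage point. Gabra3 followed with 3.13% ± 0.755 and Gabra2 with 2.72% ± 1.02. Gabra4 took 0.349%, 2.40% and 0.836%, and Gabra5 0.509%, 0.378% and 1.31%. Without replicate 2 the mean share of Gabra4 fell from 1.19% to 0.592%, and without replicate 3 that of Gabra5 fell from 0.732% to 0.443%. In counts, not scaled by length, Gabra6 made up 84.5% (95% Wilson interval 82.7% to 86.1%), 82.7% (81.3% to 84.1%) and 86.0% (84.6% to 87.3%) of the reads of the 5 genes. These are shares of the 5 listed genes and not of all alpha subunit RNA.

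**Figure D2:**
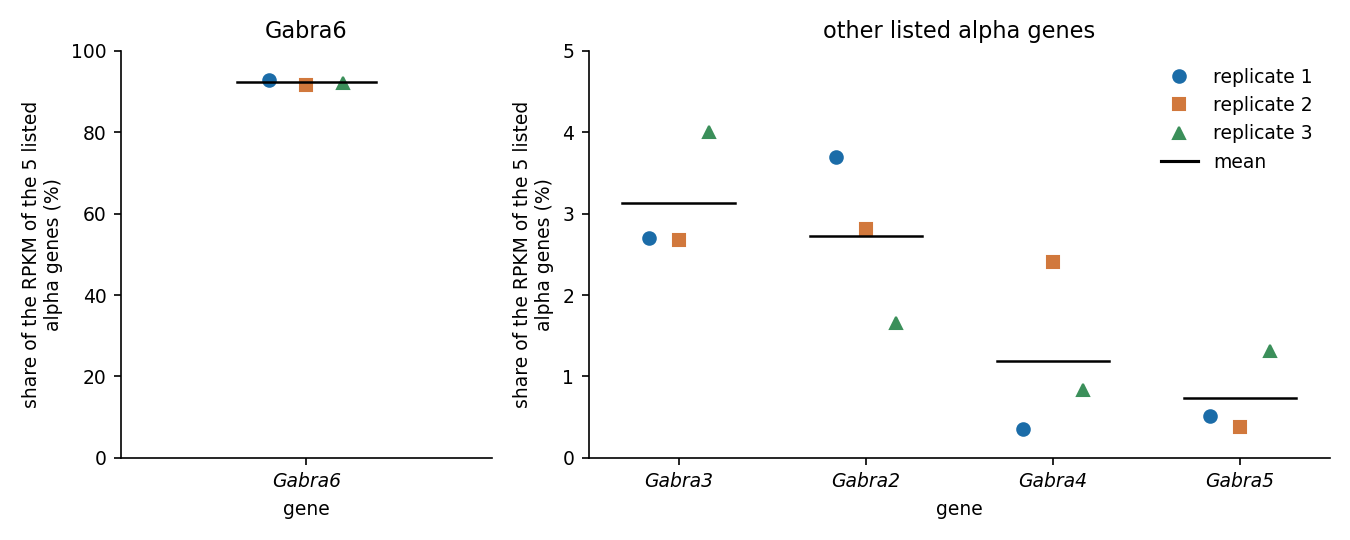
Share of each listed alpha gene in the RPKM summed over the 5 of them, in percent, with a symbol per replicate and a line at the mean; the axis for Gabra6 (left) runs to 100% and that for the other 4 genes (right) to 5%. Gabra6 lies between 91.7% and 92.8%, and every other gene below 5%.

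As a pair, the granule-type genes exceeded the general subunit genes on average, but only through Gabra6. The mean log2(RPKM + 1) of Gabra6 and Gabrd minus that of Gabra2, Gabra3, Gabra4, Gabra5 and Gabrb2 was 1.27, 1.47 and 1.03, or 1.26 ± 0.22 (SD, n = 3), higher in 3 of 3 libraries (p = 0.25, exact permutation of signs). Taken singly, Gabra6 lay 4.16 ± 0.05 above the mean of the general genes in 3 of 3 libraries. Gabrd differed from it by -1.64 ± 0.49 and was lower in 3 of 3. The 2 granule-type genes thus stood on opposite sides of the mean of the general genes in every library. That mean includes the abundant Gabrb2. Against single low genes, Gabrd was lower than Gabra4 in 2 of 3 libraries and higher than Gabra5 in 2 of 3.

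Partners in known receptors were compared next. Gabra6 minus Gabrb2 was 0.20 ± 0.10 in log2 units, with Gabra6 higher in 3 of 3 libraries (p = 0.25, exact permutation of signs), but this sign depends on the length used. Scaled by the longest coding transcript the difference was -0.45, by coding length -0.97 and as CPM -1.15. Gabrd minus Gabrb2 was -5.60 ± 0.50, lower in 3 of 3 libraries. Gabrd minus Gabra4 was -0.27 ± 0.42, within its SD, with Gabrd lower in 2 of 3 libraries (p = 0.5, exact permutation of signs). Gabra6 exceeded Gabra3, the next of the listed alpha genes, by 4.52 ± 0.23 in 3 of 3 libraries.

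In order of RPKM the genes ran Gabra6, Gabrb2, Gabra3, Gabra2, Gabra4, Gabrd and Gabra5, with 1 wide step. Gabrb2 exceeded Gabra3 by 4.32 ± 0.31 on the log2(RPKM + 1) scale (SD, n = 3). Below that step, Gabra3 and Gabra2, Gabra4 and Gabrd (0.27 ± 0.42), and Gabrd and Gabra5 (0.02 ± 0.91) differed by less than their SD. Gabra2 exceeded Gabra4 in 3 of 3 libraries, by 0.81 ± 0.79. The median of the 7 genes was 1.90 on that scale, beside 2.04 for the 12562 genes.

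**Figure D3:**
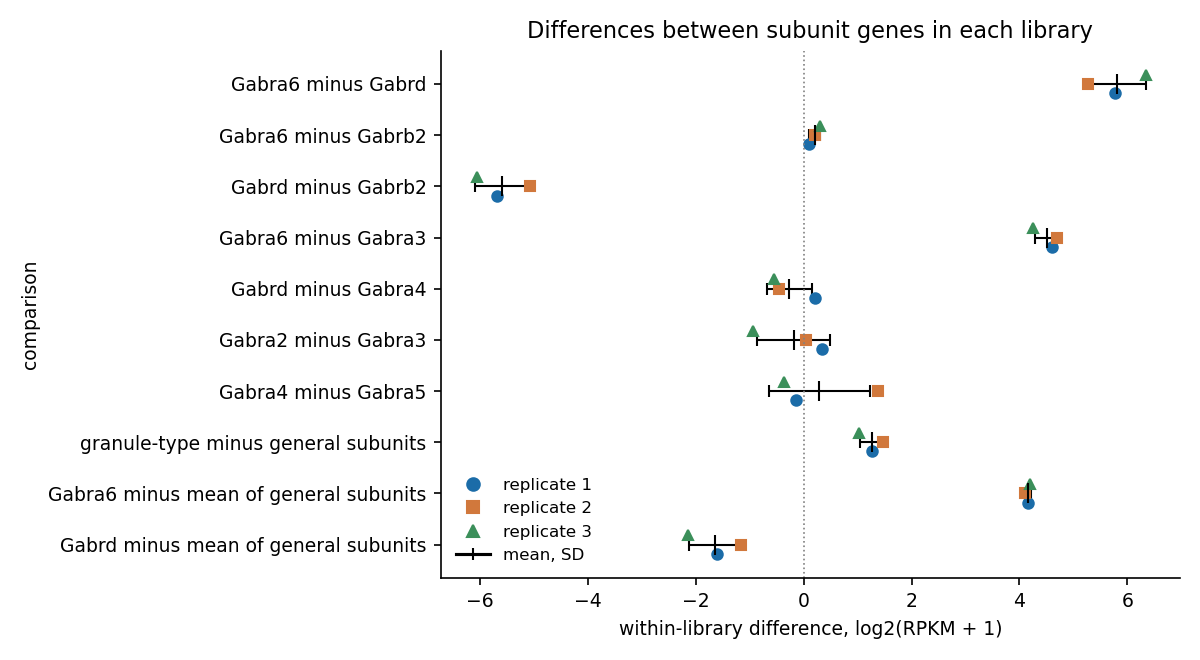
Within-library differences of log2(RPKM + 1) between subunit genes or groups of them, with a symbol per replicate and a black mark and bar for mean and SD of the 3 libraries; the dotted line is at 0. The differences of Gabra6 from Gabrd, Gabra3 and the mean of the general genes lie above 4 in all libraries. Those among the low genes spread across 0.

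The spread between libraries was smallest for the abundant genes. All 7 genes passed a Poisson chi-square test for variation between libraries beyond counting error, where 96.5% of the 11168 genes tested passed it (Benjamini-Hochberg adjusted p under 0.05), so the count says nothing particular about them. The adjusted p ran from 8.7e-24 for Gabra4 to 3e-05 for Gabra2. Without replicate 3 it called 4 of the 7, no longer Gabra2, Gabra3 and Gabra5, and 82.2% of all genes tested there. Without replicate 1, where 80.5% of genes were called, it did not call Gabrb2 (adjusted p = 0.7), and Gabrd fell under the count minimum there and without replicate 2. By edgeR's quasi-likelihood dispersion over its trend, 0 of the 7 were called at an adjusted p under 0.05, as were 0.0% of all genes. With no gene called, this does not show whether a member varied more than genes of its level. At an unadjusted p under 0.05 that test named 477 genes, none of them a member.

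The coefficient of variation of CPM was 8.48% for Gabrb2 and 15.1% for Gabra6. It was 25.2% for Gabra2, 36.8% for Gabra3, 80.3% for Gabra5, 84.7% for Gabrd and 92.0% for Gabra4. Their median of 36.8% compares with 66.2% over the 12562 genes. Among genes within 1.5 times the same mean CPM, a lower coefficient was found for 12.6% of those near Gabrb2, 21.0% of those near Gabra6 and 9.05% of those near Gabra2. For Gabra4 it was 62.3%, so at its level it lay above the middle of such genes.

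The libraries also differed in markers of other cells, but the order of the libraries depended on how a list was summed up. The summed level of 9 granule cell markers was 3604, 4183 and 4191 CPM in replicates 1, 2 and 3, lowest in replicate 1, as were Gabra6 and Gabrb2. Of the 9, 6 were lowest in replicate 1, 1 in replicate 2 (Zic1) and 2 in replicate 3 (Fat2 and Cbln1), and their median was lowest in replicate 2 (8.59, 8.50 and 8.80 on the log2(CPM + 1) scale). All 9 had at least 10 CPM, and none was at 0. The 8 Purkinje cell markers summed to 5928, 7801 and 7443 CPM, also lowest in replicate 1, with the calcium release channel gene Itpr1 at 3669 ± 451 CPM and Pcp4 near 0 (5, 2 and 1 counts). The 8 markers of glutamatergic neurons of the deep nuclei summed to 740, 522 and 479 CPM, highest in replicate 1, a sum carried by abundant genes such as Slc17a6 and Meis2. Of the 8, 5 were highest in replicate 1 and 3 in replicate 2 (Spp1, Tbr1 and Lhx9). The median of the 8 was lowest in replicate 1 (4.56, 4.76 and 4.76). What these cell types contributed to the subunit levels was not tested.

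Other lists took other orders. The 6 genes listed for inhibitory neurons of the deep nuclei summed to 725, 406 and 945 CPM, with Sox14 at 0. That sum was carried by Gad2 (414 ± 169 CPM) and Gad1 (203 ± 60.4 CPM) and need not come from that cell type. The 5 markers of interneurons of the cortex summed to 469, 348 and 308 CPM. For glia, 3 oligodendrocyte markers summed to 1707, 1808 and 1394 CPM and 4 astrocyte markers to 1528, 1540 and 1885 CPM. Vascular markers summed to 27.0, 89.8 and 50.4 CPM, with Cldn5 at 0. Microglial markers summed to 15.0, 30.9 and 13.1 CPM, with C1qa, Aif1 and Trem2 at 0. Both sums were highest in replicate 2, the library in which Gabra4 and Gabrd were also highest. The sums of the Purkinje and oligodendrocyte lists were highest there too, so this is not particular to vascular or microglial genes. The microglial level is that of Csf1r alone, and of the 2 vascular genes detected Rgs5 was highest in replicate 2 and Flt1 in replicate 3 (6.22, 43.0 and 47.1 CPM). Whether any of these lists bears on Gabra4 and Gabrd was not tested.

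**Figure D4:**
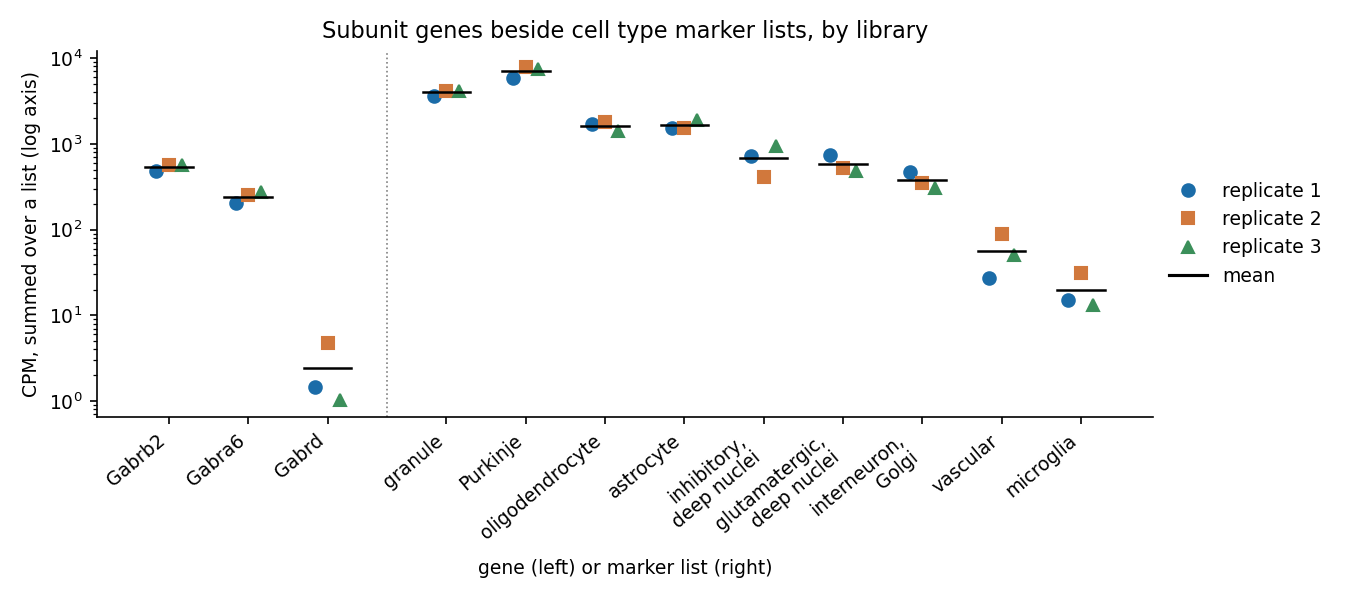
CPM of Gabrb2, Gabra6 and Gabrd (left of the dotted line) and CPM summed over each marker list (right) on a log axis, with a symbol per replicate and a line at the mean; columns are to be read across replicates, since lists differ in number and length of genes. Gabra6 runs from 202 to 272 CPM and the granule list from 3604 to 4191 CPM, both lowest in replicate 1; the sums are carried by abundant genes, and the list's median is lowest in replicate 2.

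Transcripts of the 7 genes differ in base composition, which the choice of genes did not use. Taking the longest coding transcript, GC content was 39.7% for Gabra6, 44.0% for Gabrb2 and 38.4% to 47.1% for Gabra2, Gabra3, Gabra4 and Gabra5. Gabrd stood apart with 56.8%, above 85.5% of 19779 coding genes. At 1921 bases it also had the shortest such transcript of the 7. Of 718 other coding genes within 1 percentage point of its GC content and 1.5 times its length, 25.9% had at least 10 CPM, with a median of 1.53 CPM. Around Gabra6, 22.3% of 449 such genes had at least 10 CPM and 2.67% at least 100 CPM. The granule cell marker Cbln1, which encodes a secreted synapse organizer, has a GC content of 56.2%, close to that of Gabrd, and reached 179 ± 30.9 RPKM (SD, n = 3). Zic2 (59.9%) and Slc17a7 (58.5%) reached 39.2 ± 19.2 and 10.1 ± 3.42 RPKM. The parts of base composition and transcript length in the level of Gabrd were not tested.

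**Figure D5:**
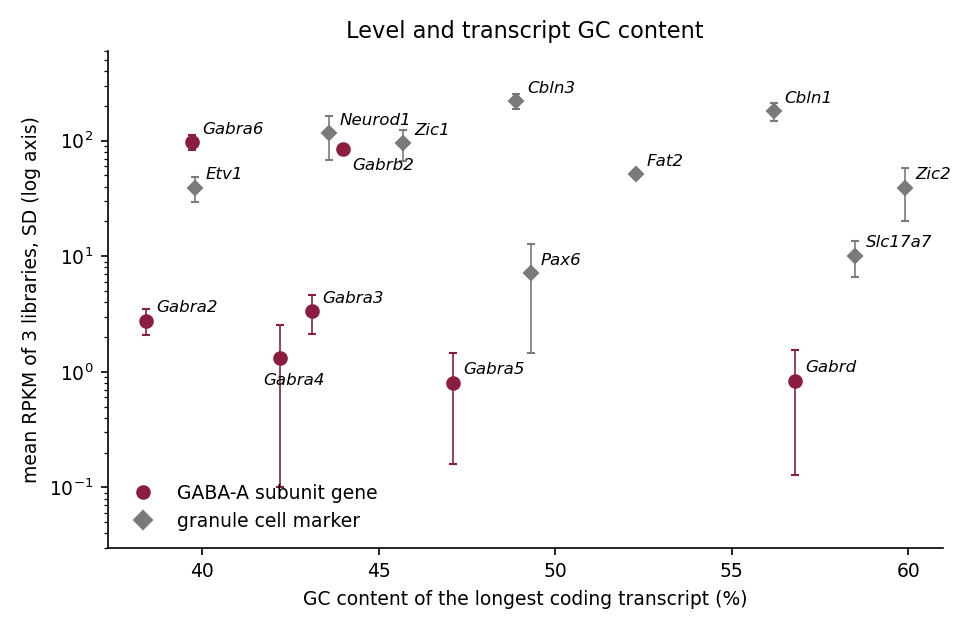
Mean RPKM of 3 libraries with SD on a log axis against GC content of the longest coding transcript, for the 7 subunit genes (circles) and 9 granule cell markers (diamonds). Gabrd, at 56.8% GC and 0.841 RPKM, lies below Cbln1 (56.2% GC, 179 RPKM), Zic2 (59.9% GC, 39.2 RPKM) and Slc17a7 (58.5% GC, 10.1 RPKM).

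A few other GABA-A receptor genes were looked at beside the 7. The gamma gene Gabrg1 had 370, 27 and 107 counts and the beta gene Gabrb1 had 23, 115 and 333, so both differed between libraries by more than 10 times. Gabrb1 starts beside Gabra4 on chromosome 5 and runs the other way, and it was highest in replicate 3 where Gabra4 was highest in replicate 2. The theta gene Gabrq had 56, 139 and 86 counts. Gabre, Gabrp and Gabrr3 were at 0 in all 3 libraries.

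Genes for the assembly, traffic and anchoring of these receptors were counted throughout. All 18 listed genes had at least 10 CPM, a level that 8172 genes beside Gabra6 reached among the 32531 symbols. Of the 18, 6 had at least 100 CPM, a level not counted over all genes. Their median in a library, averaged over libraries, was 11.4 ± 2.45 RPKM (SD, n = 3). The median of the mean levels of the 12562 genes, a slightly different measure, was 3.94 RPKM. Nsf, a fusion ATPase that binds the Gabarap protein, led with 180 ± 15.5 RPKM. Gabarap, which links receptors to microtubules (68.4 ± 25.4 RPKM), and its relative Gabarapl1 (79.4 ± 37.6 RPKM) followed. Nlgn2, the adhesion molecule of inhibitory synapses, was at 24.5 ± 12.6 RPKM and Iqsec3, an exchange factor that binds gephyrin, at 22.9 ± 10.4 RPKM. The lowest were Zdhhc3, a palmitoylating enzyme of the Golgi (2.11 ± 0.474 RPKM), the auxiliary subunit gene Shisa7 (3.81 ± 3.11 RPKM) and Plcl2 (4.41 ± 1.23 RPKM).

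Over the 3 libraries, the genes with the pattern most like that of Gabra6 were Golm1, Gabbr1 and Prex2. Likeness was the root mean square difference of log2(CPM + 1) deviations from each gene's own mean, and it was 0.0037, 0.0038 and 0.0091 for these genes. Gabbr1, a GABA-B receptor gene, was at 266, 333 and 357 CPM. Rock1, Syncrip and Pitpnm3 were nearest to Gabrb2, at 0.007, 0.0087 and 0.010. With 3 libraries such likeness is common: of 8172 genes compared, 229 lay within 0.1 of Gabra6 and 261 within 0.1 of Gabrb2.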

How the data were processed

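The authors deposited 1 table per library, with whole-number read counts for each gene symbol that were not normalized. STAR 2.0.0e, HTSeq and the build mm10 are named per the submitters' processing notes; the annotation, strand setting and library kit were not given in the sources used here. Rows that name no gene were left out; 44.1% to 50.2% of the counted reads had no feature and 1.77% to 1.94% were ambiguous. Multiply aligned reads were not counted to genes. The files were joined by symbol and scaled with the TMM method of edgeR 4.0.16 (R 4.3.3). Exon lengths and positions came from GENCODE M21 (23155 symbols matched), promoters from RefSeq on GRCm38.p6.

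With 1 group, no comparison between groups was made. Differences within a library are log2(RPKM + 1), with a pseudocount of 1, and an exact permutation test that flips the libraries' signs; 8 were planned, those between neighbours in level and for each granule-type gene were added, and no p was adjusted since none can pass 0.05. Spread was tested across all genes that reached 10 counts in 2 or more libraries, with a chi-square test against Poisson error and by edgeR's quasi-likelihood dispersion (intercept only), both with Benjamini-Hochberg adjustment, checked on simulated data. The genes and lists were chosen with earlier results of these data known. Named genes are the 7 members, the 3 highest and 3 lowest other receptor genes, the 5 highest and 3 lowest of the anchoring list, listed markers and the 3 genes of nearest pattern; some receptor genes, and results that need them, are not reported here. Alternatives were DESeq2 1.42.0 size factors, plain totals, other lengths, a pseudocount of 0.1 and leaving out each library. Reads without molecular identifiers are not independent molecules, so intervals cover counting error only.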

Additional observations from a re-analysis of the deposited data

How the results depend on the processing

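Of 206 alternative values for 28 results, 166 stayed within 1 SD of the reported value (or, for counts, within 1.5 times) with the same sign, 32 moved further and 8 changed sign. Leaving out 1 of 3 libraries can hardly move a mean by 1 SD, and rescaling libraries cannot change a share within a library. Part of the 166 was thus fixed in advance, and the count is no measure of stability. The share of Gabra6 among the listed alpha genes (92.2%) was 90.8% with the longest coding transcript, 85.5% with coding length and 84.4% as CPM, and 92.0% to 92.5% leaving out a library. The granule-type minus general difference (1.26) was 0.58 with coding length, 0.42 as CPM, 1.94 against the median of the general genes, 2.25 against the general alpha genes and 1.15 to 1.37 leaving out a library. Gabra6 minus Gabrd (5.80) was 6.94 with a pseudocount of 0.1 and 5.51 to 6.06 leaving out a library. Gabra6 minus Gabrb2 turned to -0.45 with the longest coding transcript, -0.97 with coding length and -1.15 as CPM. Gabra2 minus Gabra3 turned to 0.022, 0.87 and 0.67 under the same settings and ran from -0.45 to 0.19 leaving out a library, Gabra4 minus Gabra5 from -0.25 to 0.61. Leaving out replicate 1, 2 or 3, 5 of 6, 6 of 6 and 4 of 7 members tested varied beyond counting error. Of all genes, 80.5%, 81.8% and 82.2% did. With all libraries, edgeR's dispersion over its trend called 0 of 7, also 0 with robust estimation, and 0.0% of all genes in both. The length chosen thus sets the order of Gabra6 and Gabrb2. Gabrd and Gabra5 rest on 8 to 42 and 10 to 36 counts. Their order turned between libraries (42 against 11 counts in replicate 2, 8 against 36 in replicate 3), so it is not settled. The parts of low counts and of spread between libraries in this were not separated. Shares over a wider set of alpha genes were not run. No paired analysis was possible because there is 1 group.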
